A study of Mus musculus with 8 samples.

Results

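NF-kappa-B is a family of transcription factors that drive inflammatory and survival genes. The genes followed here are 10 of its core circuit, read in mouse retina after an injection: the DNA-binding subunits Nfkb1, Nfkb2, Rel, Rela and Relb, and the inhibitor and feedback genes Nfkbia, Nfkbib, Nfkbiz, Bcl3 and Tnfaip3. They were chosen by name, with earlier results of these data known. The platform annotation gives 18193 genes as the single symbol of a probe set. A probe set is the group of short probes on an Affymetrix array that reads 1 transcript or transcript end. Of the 10, 9 genes had at least 1 such probe set and 18 probe sets in all, with 5 for Nfkbia, 3 for Nfkbiz, 2 each for Nfkb2, Nfkbib and Tnfaip3 and 1 each for Rel, Rela, Relb and Bcl3. Nfkb1 was the single symbol of 0 probe sets and is not analysed here.

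Total RNA of 8 retinas was measured, 1 array each. As controls served 4 retinas dissected fresh, with the label day 0. The other group was 4 retinas labelled as injected and as given a compound. The labels used here name no compound, dose, route, interval, strain, age or sex, describe no vehicle or sham injection, and do not say whether the retinas came from separate animals. Injection, compound, elapsed time and handling therefore cannot be told apart, and p-values reflect only how far these samples spread, in part perhaps for technical reasons.

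In resting cells the subunits are held in the cytoplasm by inhibitor proteins, of which Nfkbia (I-kappa-B alpha) and Nfkbib (I-kappa-B beta) are the classical members. Receptors for tumour necrosis factor, interleukin 1 and microbial products activate a kinase complex that marks these inhibitors for destruction, and the freed dimers enter the nucleus. Among the genes they switch on are their own brakes: Nfkbia, and Tnfaip3, which edits ubiquitin chains and shuts the receptor complexes down. Nfkbiz and Bcl3 are atypical, mostly nuclear relatives of the inhibitors that bind the subunits and can raise or lower the transcription of selected genes. In retina the pathway is known from microglia, Müller glia and vessels as well as neurons.

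The promoters of the members were searched for the kappa-B motif. RefSeq windows of 300 bases (build GRCm38.p6, 250 before to 50 after an annotated transcript start) were at hand for 7 of the 10 members, and not for Nfkb1, Relb and Nfkbiz. The consensus kappa-B motif, searched on both strands with overlapping matches kept, was present in a window of 5 of them (Bcl3, Tnfaip3, Rel, Nfkbia and Nfkb2) and of neither Rela nor Nfkbib. It occurred in 8.46% of all 32851 windows and in 9.55% of genes with a window. A match is a description of letters and not a bound site. The stretches from 140 bases before to 20 bases after the start are shown because they hold the matches of the genes that the results turn on, with kappa-B matches in capitals, 5′ to 3′ on the strand of the gene.
Tnfaip3 (chr10:19015391-19015550, minus strand): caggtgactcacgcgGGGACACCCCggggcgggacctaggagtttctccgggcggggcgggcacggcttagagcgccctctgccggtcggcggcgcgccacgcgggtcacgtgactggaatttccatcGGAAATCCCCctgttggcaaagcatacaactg
Bcl3 (chr7:19822736-19822895, minus strand): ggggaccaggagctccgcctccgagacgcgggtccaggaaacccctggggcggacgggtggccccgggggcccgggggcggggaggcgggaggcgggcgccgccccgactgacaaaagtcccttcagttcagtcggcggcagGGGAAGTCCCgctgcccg
Nfkbia (chr12:55492628-55492787, minus strand): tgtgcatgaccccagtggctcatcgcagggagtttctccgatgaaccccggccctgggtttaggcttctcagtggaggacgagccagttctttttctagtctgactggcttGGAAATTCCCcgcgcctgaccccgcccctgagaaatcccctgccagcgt
Rel (chr11:23770950-23771109, minus strand): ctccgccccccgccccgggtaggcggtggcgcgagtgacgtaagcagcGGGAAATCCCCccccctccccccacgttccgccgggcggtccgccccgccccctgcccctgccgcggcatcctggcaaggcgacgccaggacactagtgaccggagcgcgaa
Nfkb2 (chr19:46304597-46304756, plus strand, the first of 3 annotated starts): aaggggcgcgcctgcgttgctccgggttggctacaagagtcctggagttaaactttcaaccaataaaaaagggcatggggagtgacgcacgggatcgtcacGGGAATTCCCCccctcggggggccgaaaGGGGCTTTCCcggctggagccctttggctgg

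In Tnfaip3 the matches lay 125 to 116 and 12 to 3 bases before the start shown. The window of that start also held an AP-1 motif (TGAGTCA or TGACTCA, in 5.2% of all windows) 136 to 130 bases before it. The window of a second annotated start of Tnfaip3 held 0 matches of either motif. The match of Nfkbia lay 29 to 20 bases before the start. That of Bcl3 fell in the transcribed part, at bases 3 to 12. Rel and Nfkb2 each had overlapping matches, GGGAAATCCC with GGAAATCCCC in Rel and GGGAATTCCC with GGAATTCCCC in Nfkb2. The genes with a match thus include members whose signal lay higher, lower and about level after injection, as given next.

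Signal is given as log2(intensity + 16) after quantile normalisation. A probe set was tested if the average of its 8 values reached the 40th percentile of all probe sets, a floor at a log2 value of 8.50. Of the 18 member probe sets 13 passed, covering 7 genes. Rel, Relb and the second probe sets of Nfkb2, Nfkbib and Tnfaip3 lay below the floor, where signal is dim, and their differences come from a fit without the filter. Levels are compared between arrays and never between probe sets.

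No member passed in either direction: by limma with Benjamini-Hochberg adjustment over all 27022 probe sets tested, 0 of the 13 had an adjusted p under 0.05, as did 0% of all probe sets, and the smallest adjusted p of a member was 0.638. An unadjusted p under 0.05 was found at 2 of the 13, beside 6.99% of all probe sets: 1 higher (Bcl3), beside 3.66%, and 1 lower (Tnfaip3), beside 3.33%. Read at 1 probe set per gene, that is 2 of 7 genes beside 6.68% of the 12886 genes tested. The groups did not overlap at 1 of the 13, Tnfaip3, beside 5.07% of all probe sets, or 2.6% with the injected arrays below. Counts this small cannot set the members apart from other genes.

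**Figure D1:**
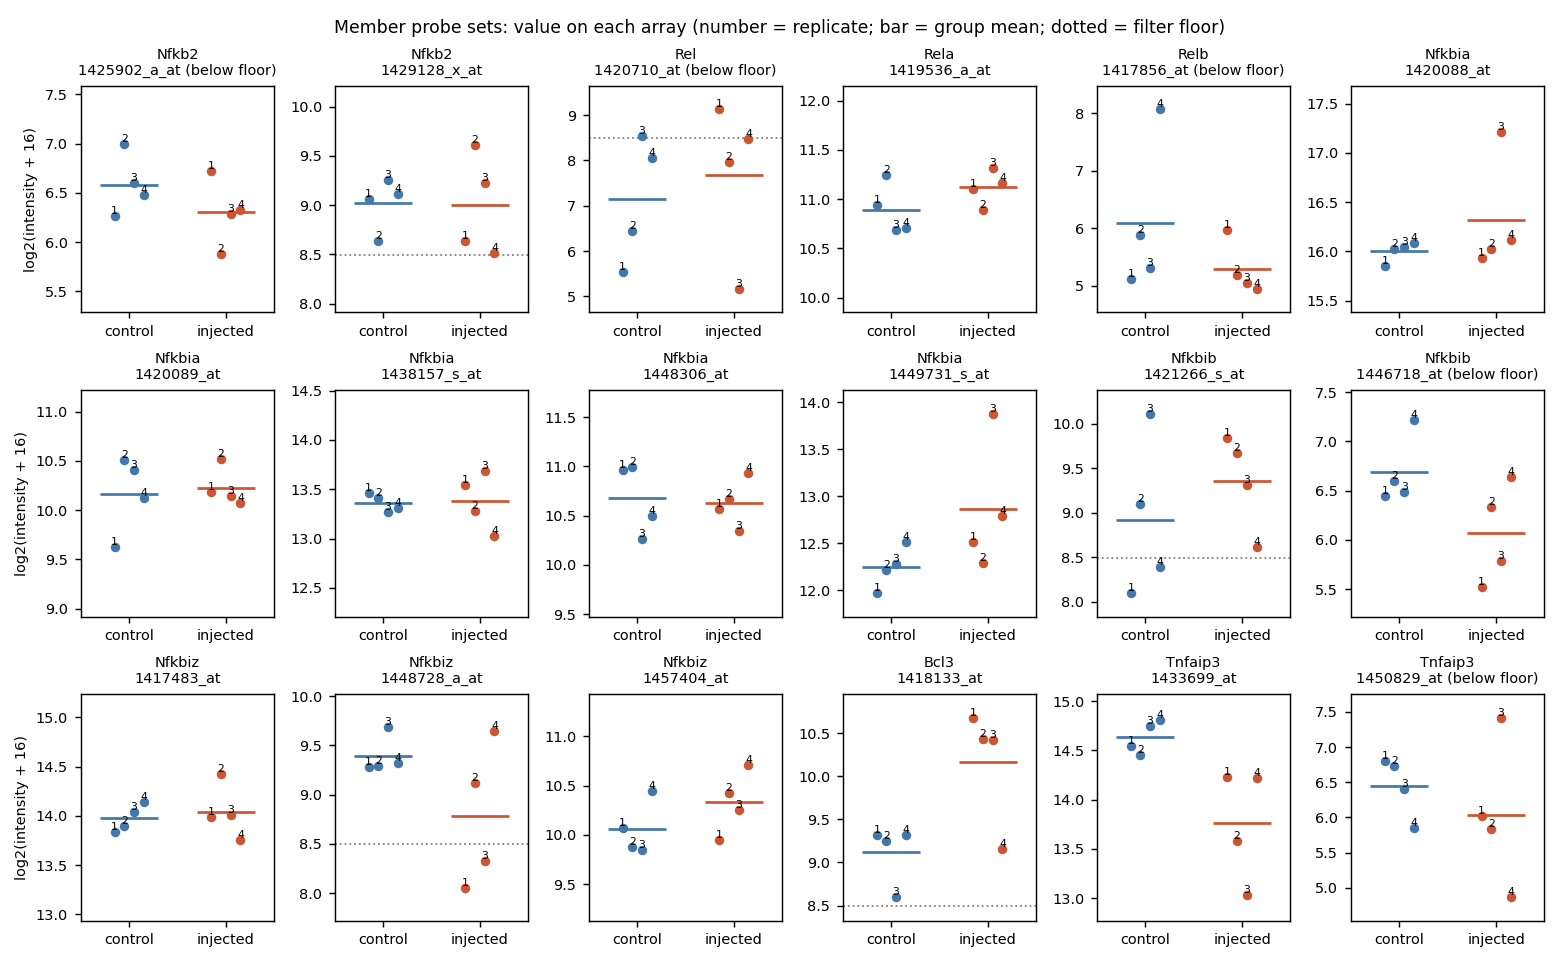
Each panel plots the log2(intensity + 16) values of 1 member probe set on the 4 control (blue) and 4 injected (orange) arrays, with replicate numbers, group means as bars and the filter floor of 8.50 dotted where it falls in the panel. Tnfaip3 at 1433699_at is the only panel among the 13 tested in which the groups separate, and 3 of the 4 injected arrays lie above all controls for Bcl3.

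Tnfaip3, the ubiquitin-editing brake, had lower signal after injection at its tested probe set (1433699_at). Control arrays read 14.54, 14.45, 14.75 and 14.81 (replicates 1 to 4), and injected arrays 14.23, 13.58, 13.04 and 14.22. All 4 injected retinas lay below all 4 controls, with replicates 2 and 3 well below and replicates 1 and 4 just under the control range. Group means were 14.64 ± 0.17 and 13.77 ± 0.57 (SD, n = 4 each), a difference of -0.87 ± 0.28 log2 units (SE; 95% confidence interval -1.51 to -0.23), or 1.83-fold lower, which did not pass (limma unadjusted p = 0.0129, adjusted p = 0.638). Without injected replicate 3, the lowest array, the difference was -0.61. The second probe set (1450829_at) lay below the floor, with a control mean of 6.44 and an injected mean of 6.04, and differed by -0.41 ± 0.51 with overlapping groups.

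Bcl3, the nuclear co-regulator, had higher signal after injection. Control arrays read 9.32, 9.25, 8.60 and 9.32 at its single probe set (1418133_at), and injected arrays 10.68, 10.43, 10.42 and 9.16. Injected replicates 1 to 3 stood above every control, while replicate 4 lay inside the control range, so the groups overlapped. Group means were 9.12 ± 0.35 and 10.17 ± 0.69 (SD, n = 4 each), a difference of 1.05 ± 0.34 log2 units (SE; 95% confidence interval 0.27 to 1.82), or 2.07-fold higher, which did not pass (limma unadjusted p = 0.0133, adjusted p = 0.638). Without injected replicate 4 the difference was 1.40 and the adjusted p 0.134, the smallest that Bcl3 reached in any of the settings tried.

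**Figure D2:**
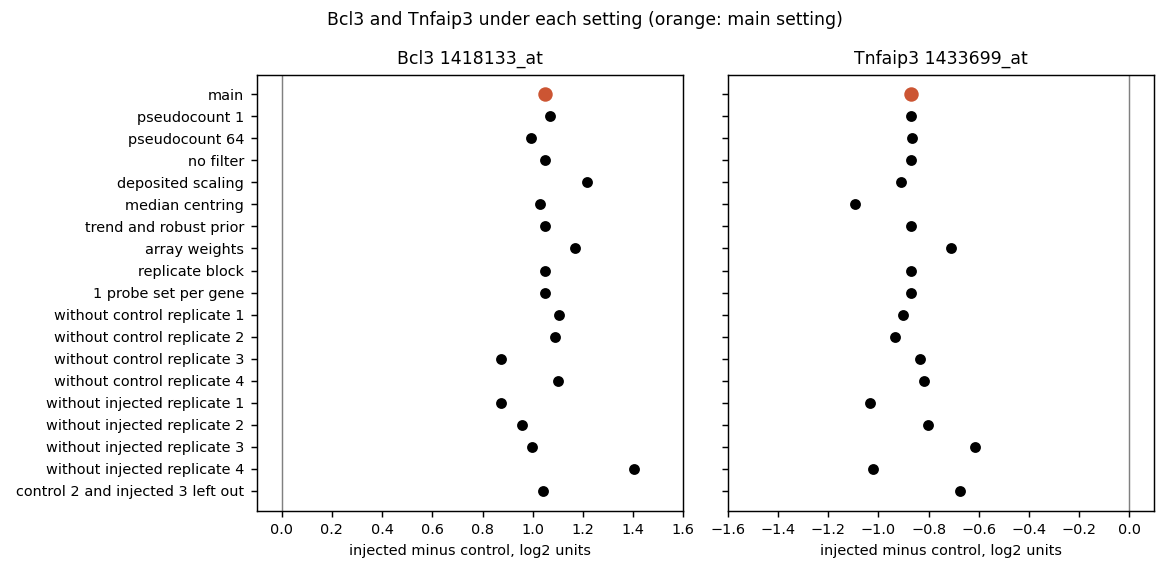
The difference of injected minus control, in log2 units, at the tested probe sets of Bcl3 (left) and Tnfaip3 (right) under the main setting (orange) and each of the 18 alternatives (black). Bcl3 ran from 0.87 to 1.40 and Tnfaip3 from -1.09 to -0.61, so neither changed sign, and neither passed the adjusted threshold under any of them. Settings that change only the filter, the variance prior, the blocking or the number of probe sets per gene leave the difference unchanged.

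Nfkbia encodes the inhibitor that is destroyed and then made anew each time the pathway fires. Its probe set with the highest signal (1420088_at) read 15.86, 16.02, 16.04 and 16.09 in control and 15.93, 16.02, 17.21 and 16.12 in injected retina. A single array, injected replicate 3, stood more than a full log2 unit above the 7 others, which lay within the control range or just past its upper end. The difference was 0.32 ± 0.29 log2 units (SE; 95% confidence interval -0.32 to 0.96; limma adjusted p = 0.779), and without that array it was 0.022.

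The other probe sets of Nfkbia did not give 1 common picture. At 1449731_s_at controls read 11.97, 12.21, 12.28 and 12.51 and injected arrays 12.51, 12.29, 13.88 and 12.79. Replicate 3 was again the highest, and the difference was 0.63 ± 0.33 (limma unadjusted p = 0.0911, adjusted p = 0.730) and 0.29 without it. At 1448306_at, the only one of the 5 with a transcript accession in the annotation used, controls read 10.97, 10.99, 10.26 and 10.50 and injected arrays 10.57, 10.67, 10.35 and 10.94. There the groups lay on top of each other, with a difference of -0.05 ± 0.23 (95% confidence interval -0.57 to 0.47), and injected replicate 3 was the lowest of its group. The remaining 2, 1420089_at and 1438157_s_at, differed by 0.06 ± 0.23 and 0.02 ± 0.19. Probe sets ending in s_at or x_at can bind related transcripts, so these readings are less certain.

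Nfkbib, the inhibitor that is renewed more slowly, varied widely at its tested probe set (1421266_s_at). Controls read 8.10, 9.10, 10.12 and 8.39 and injected arrays 9.84, 9.68, 9.32 and 8.62. The control range covered all 4 injected arrays, 2 controls fell below the floor of 8.50, and the difference was 0.44 ± 0.45 (SE). The probe set below the floor (1446718_at) gave the opposite sign, -0.62 ± 0.32, from 6.45, 6.60, 6.49 and 7.22 in control and 5.52, 6.34, 5.79 and 6.64 in injected retina.

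Nfkbiz, which is induced by interleukin 1 and Toll-like receptor signals, had 3 tested probe sets with both signs. At 1417483_at controls read 13.84, 13.90, 14.04 and 14.14 and injected arrays 13.98, 14.42, 14.01 and 13.75. The groups overlapped fully, with a difference of 0.06 ± 0.20 log2 units (SE; 95% confidence interval -0.38 to 0.50). At 1448728_a_at controls read 9.28, 9.29, 9.69 and 9.32 and injected arrays 8.05, 9.12, 8.32 and 9.64. Replicates 1 and 3 lay below the floor there and replicate 4 near the top of the controls, giving -0.61 ± 0.34 (limma unadjusted p = 0.105, adjusted p = 0.735). The last, 1457404_at, differed by 0.28 ± 0.23, from 9.85 to 10.44 in control and 9.95 to 10.71 in injected retina.

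Among the subunits, Rela, the activating partner of the classical dimer, had the smallest SE of those tested. Controls read 10.94, 11.24, 10.68 and 10.70 and injected arrays 11.10, 10.89, 11.32 and 11.17. Control replicate 2 was higher than 3 of the 4 injected arrays, so the groups overlapped. Means were 10.89 ± 0.26 and 11.12 ± 0.18 (SD, n = 4 each), a difference of 0.23 ± 0.20 (SE), and its 95% confidence interval ran from -0.21 to 0.67.

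Nfkb2, the precursor subunit of the non-canonical pathway, read 9.06, 8.63, 9.26 and 9.11 in control and 8.64, 9.61, 9.23 and 8.52 in injected retina at its tested probe set (1429128_x_at). The injected arrays straddled the controls, and the difference was -0.02 ± 0.28 (SE; 95% confidence interval -0.64 to 0.60). The other probe set (1425902_a_at), below the floor, differed by -0.28 ± 0.26, from 6.26 to 6.99 in control and 5.88 to 6.72 in injected retina.

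Rel and Relb, subunits best known from lymphocytes and antigen-presenting cells, were dim. Rel (1420710_at) read 5.53, 6.44, 8.53 and 8.05 in control and 9.13, 7.98, 5.17 and 8.47 in injected retina. It spread over several log2 units within each group, so its difference of 0.55 ± 0.96 (SE) carries little information. Relb (1417856_at) read 5.12, 5.89, 5.30 and 8.06 in control and 5.96, 5.18, 5.05 and 4.95 in injected retina. Its difference of -0.81 ± 0.63 rested on control replicate 4 and was -0.15 without it.

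**Figure D3:**
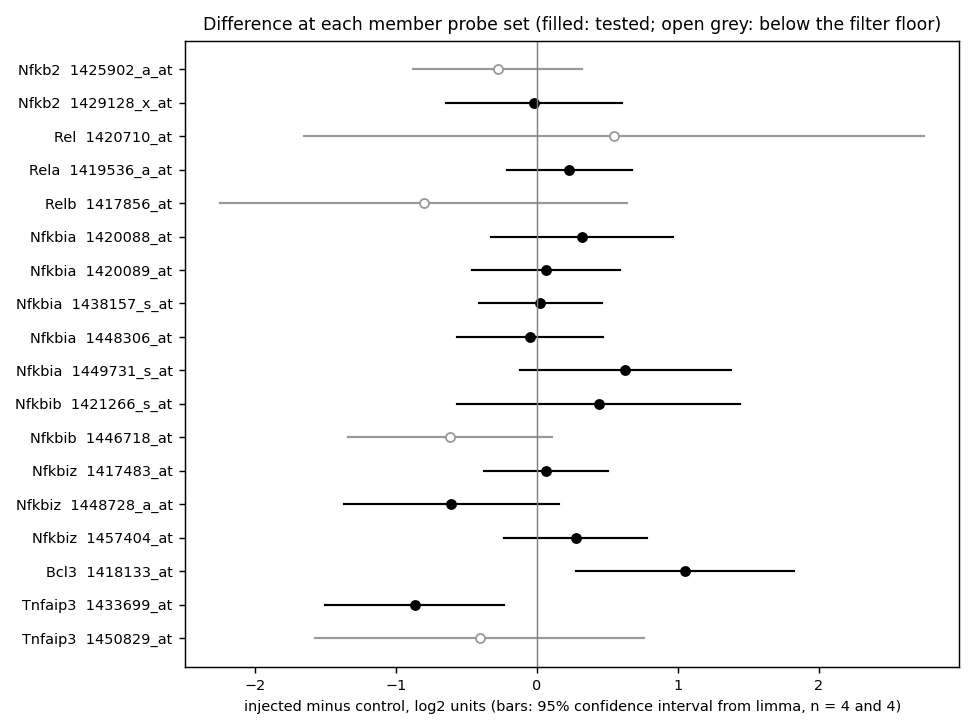
The difference of injected minus control in log2 units (point) with its 95% confidence interval (bar) at each of the 18 member probe sets, filled black where tested and open grey where below the floor. The intervals of Bcl3 (0.27 to 1.82) and Tnfaip3 at 1433699_at (-1.51 to -0.23) are the only ones that exclude 0 before adjustment, and those of Rel and Relb are the widest.

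The precision differed between members. Half-widths of the 95% confidence interval ran from 0.44 to 1.01 log2 units over the 13 tested probe sets, and at 8 of them the whole interval lay within 1 log2 unit of 0 on either side. Injected retinas spread more than controls at 9 of the 13 (69.2%), with a median SD of 0.51 against 0.26. The same held at 72.5% of all probe sets tested, with medians of 0.42 and 0.26.

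The other genes of the pathway were read at 1 probe set each, from 5 lists of 115 genes in all. None passed the adjusted threshold (0 of 66 tested, beside 0% of all genes), and the median difference over all 12886 genes was -0.01. Signals that start the pathway were mostly dim: of 13 ligand genes 11 were the single symbol of a probe set, and 4 of these were tested. Among those below the floor were Tnf, Il1a, Lta and Ltb. Interleukin 1 beta (Il1b) differed by 0.47 ± 0.30 log2 units (SE), interleukin 18 (Il18) by 0.25 ± 0.23 and the B cell survival factor Tnfsf13b by 0.38 ± 0.40. These values rest in part on single arrays: without injected replicate 3, Tnfsf13b was at 0.012 and Il18 at 0.11, and without control replicate 1, Il1b was at 0.20. The other tested probe set of Tnfsf13b differed by 0.82. At 3 of the 4 the difference was positive, with a median of 0.31, and 0 had an unadjusted p under 0.05.

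Of 18 receptors 9 were tested, with 5 differences above and 4 below 0 and a median of 0.01. The interleukin 1 receptor Il1r1 differed by -1.08 ± 0.56 (SE). Its controls lay between 9.85 and 10.20, injected replicates 1 and 2 at 10.15 and 9.96, and replicates 3 and 4 at 7.34 and 8.43. The TWEAK receptor Tnfrsf12a differed by 0.89 ± 0.52, by 0.39 without control replicate 2 and by 1.90 at its other tested probe set, and the tumour necrosis factor receptor Tnfrsf1a by 0.33 ± 0.24. Without injected replicate 3 the difference of Il1r1 was -0.54. None of the 9 had an unadjusted p under 0.05 (0 of 9).

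Kinases and adaptors pass the signal on to the inhibitors, and 18 of the 30 listed were tested, with 12 differences above and 6 below 0 and a median of 0.11. Tradd, the adaptor of the tumour necrosis factor receptor, was the single one (1 of 18) with an unadjusted p under 0.05, beside 6.68% of all genes. It differed by 0.80 ± 0.31 log2 units (SE; limma unadjusted p = 0.0300, adjusted p = 0.709), with injected replicate 3 the highest at 11.26 and a difference of 0.52 without it. Map3k14, the kinase that starts processing of Nfkb2, differed by 0.39 ± 0.21. Map3k7, which activates the inhibitor kinases, differed by 0.31 ± 0.17 at the probe set used, but its 6 tested probe sets ran from -0.51 to 0.41.

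Other inhibitors of the pathway showed no common direction, with 16 of 19 tested, 7 differences above and 9 below 0, a median of -0.08 and 0 at an unadjusted p under 0.05. Nkiras1, a small Ras-like protein that protects the inhibitors, differed by -0.46 ± 0.24 (SE), with all injected arrays (12.84 to 13.81) below all controls (13.82 to 14.10). The groups did not overlap at 1 of the 16, beside 5.07% of all probe sets, or 2.6% with the injected arrays below. Nlrc3, a brake on adaptor signalling, differed by -1.04 ± 0.58, and its injected mean of 8.28 lay below the floor. Nfkbil1, an inhibitor-like protein, differed by 0.69 ± 0.40, and its control mean of 8.35 lay below the floor. Leaving out 1 array brought Nkiras1 to -0.23 (injected replicate 3), Nlrc3 to -0.39 (injected replicate 4) and Nfkbil1 to 0.35 (control replicate 1).

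Genes that NF-kappa-B can switch on were tested for 19 of the 35 listed, with 14 differences above and 5 below 0 and a median of 0.17. The 5 below 0 were Cxcl10 (-0.61), Ptx3 (-0.37), Tnc (-0.24), Ccl2 (-0.20) and Mmp9 (-0.18). An unadjusted p under 0.05 was found for 4 of the 19, all higher in injected retina, beside 3.77% of all genes in that direction. Of the 4, Saa3 passed the filter only through its injected values. The list was also drawn up with earlier results of these data known. The count is therefore a description and cannot set the targets apart from other genes. The list median was -0.060 with median centring and 0.034 without injected replicate 3, so its sign depended on the scaling. Cxcl13, a B cell chemokine, differed by 1.37 ± 0.22 log2 units (SE; limma adjusted p = 0.301), with injected arrays from 11.69 to 12.58 above all controls (10.74 to 11.09). Leaving out injected replicate 4, its lowest injected array, gave 1.56 and brought it past the threshold (limma adjusted p = 0.0333). Leaving out any other single array did not (limma adjusted p from 0.415 to 0.876). Its other tested probe set differed by 0.25.

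Irf1, a transcription factor of interferon signalling, differed by 0.75 ± 0.23 (SE; limma adjusted p = 0.602), again with all injected arrays above all controls. The groups did not overlap at 2 of the 19 targets tested, beside 5.07% of all probe sets in either direction. Lipocalin 2 (Lcn2), an acute-phase iron carrier, differed by 1.53 ± 0.50 (adjusted p = 0.638) with overlapping groups. Saa3, an acute-phase serum amyloid gene named here after its value was seen, differed by 2.37 ± 0.86 (adjusted p = 0.705), and its control mean lay below the floor. Several widely used readouts of the pathway, Il6, Nos2, Ptgs2 and Ccl5, lay below the floor. Several genes of the list are also known targets of interferon or STAT signalling.

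**Figure D4:**
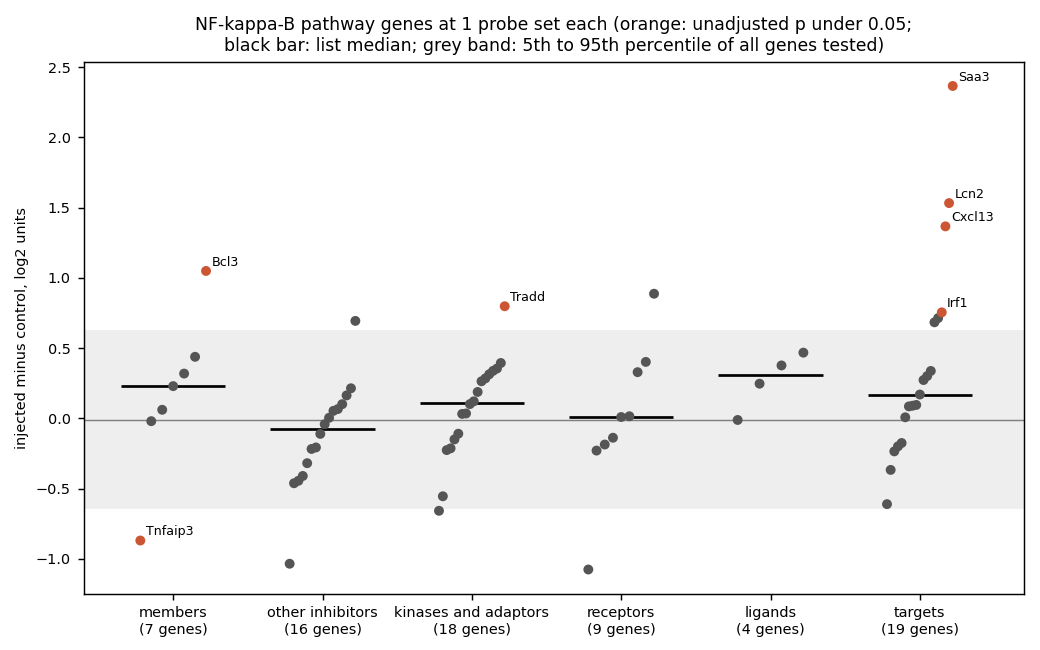
The difference of injected minus control in log2 units for each gene tested, at 1 probe set each, in the 7 members and the 5 pathway lists, with list medians as black bars, genes at an unadjusted p under 0.05 in orange and the 5th to 95th percentile of all 12886 genes (-0.64 to 0.62) as a grey band. Tnfaip3 lies below the band and Bcl3 above it, and of the targets Saa3, Lcn2, Cxcl13, Irf1, Ptges and Bcl2l1 lie above it. In the other lists Tradd, Tnfrsf12a and Nfkbil1 lie above the band and Il1r1, Nlrc3 and Birc3 below it.

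The genes whose 8 array values, each centred on its own mean, lay closest to those of a member were named as a description, by root mean square distance in log2 units over the 8 arrays. For Tnfaip3, whose own spread was 0.57, they were Fam3c and Abcd2, each at 0.14. For Bcl3, with a spread of 0.71, they were Cdkn2b at 0.24 and Grhl3 at 0.26. For Nfkbia at 1420088_at, with a spread of 0.40, they were Rtn3 at 0.079 and Zadh2 at 0.089. Rela, with a spread of 0.22, lay closest to Cyth3 at 0.079 and Ogfod3 at 0.088. Out of so many genes, some profiles over 8 arrays lie close together whatever the gene.

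Facts of the arrays bear on all these values. The 16 listed rod genes had a probe set for 14, of which 13 passed the floor; on the injected arrays their mean stood at -0.23, -0.50, -0.68 and -0.19 log2 units from the control mean. Cone markers stood at -0.53, -1.03, -1.35 and -0.24, with all 10 tested lower, and were lowest on replicates 3 and 2, as was Tnfaip3. All 8 bipolar cell markers tested were lower, with a mean of -0.43 log2 units from the control mean. Of 10 ganglion cell markers tested 9 were lower and 1 higher, and of 13 Müller and astrocyte markers 8 and 5. Vessel markers were lower for 9 of 12 and higher for 3. Pigment epithelium markers were lower for 10 of 11 and higher for 1, with an injected mean of -0.97. Fibroblast and sclera markers were split, 5 lower and 4 higher. The pigment epithelium and sclera means were highest on control replicate 2, and the cause was not tested. That array is left out with injected replicate 3 in 1 setting. All 10 lens markers tested, of 18 listed, were higher (median difference 1.67). For 2 of the 10 the control mean lay below the floor, so they passed the filter only through their injected values. The mean of the 10 ran from -1.51 to 1.58 in control and from 0.28 to 4.21 in injected arrays, with overlap. Injected replicate 3 stood apart: it held the highest or lowest value at 57.0% of all probe sets tested, against 15.7% to 28.0% on the 7 others, and at 5 of the 13 member probe sets (control replicate 3 did so at 6). The ratio of 3′ to 5′ signal of the Gapdh control probe sets, a measure of RNA and labelling quality, ran from 3.36 to 4.68 in control and from 5.26 to 8.82 in injected arrays, without overlap. For actin the ranges overlapped (39.2 to 57.2 and 43.3 to 59.7). Microglia and macrophage markers, with 16 of 20 tested, stood at -0.08, 0.35, -0.10 and -0.16 around the control mean in control and at 0.58, 0.36, 0.92 and 0.54 in injected arrays, and the summed intensity of the 19 with a probe set ran from 113558 to 153828 and from 173236 to 313840. Bcl3 was at control level on injected replicate 4, where these markers stood 0.54 above the control mean. Nfkbia was highest on injected replicate 3, where the markers stood highest (0.92), at 1420088_at, 1449731_s_at and 1438157_s_at. It was not at 1420089_at and 1448306_at. Whether any member followed the markers of a cell type was not tested. Of 18 lymphocyte and neutrophil markers 3 passed the floor, and the summed intensity of the 14 with a probe set ran from 2274 to 3860 in control and from 2868 to 6126 in injected arrays. The part of RNA quality and of cell content in the member values was not tested, and in whole retina fewer cells of a type and less RNA per cell cannot be told apart.

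The choice of scaling moves the differences, by amounts that vary between probe sets. With the deposited scaling the median difference over all probe sets tested was 0.03 and with median centring -0.15, against -0.02 here, a shift of -0.13 for the latter. The share of probe sets with an unadjusted p under 0.05 that were higher was 52.4% here, 67.7% with the deposited scaling and 31.5% with median centring. Of the 13 member probe sets tested 9 were positive here, 10 with the deposited scaling and 6 with median centring. A balance of signs over the member probe sets is thus not a stable reading. Bcl3 stayed higher and Tnfaip3 lower under both.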

How the data were processed

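The table used holds 1 linear intensity per probe set and array, deposited by the authors. With 2% of the values trimmed from either end, all 8 arrays averaged 2500, as scaling to a common target gives. The software that did this is not given in the sources used here. It hides any change in total RNA. The 64 control probe sets served for quality ratios alone, which left 45037. Of these 34945 had 1 symbol in the platform annotation, 932 several and 9160 none.

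Array medians differed by up to 1.55 times, and intensities were quantile-normalised in limma 3.58.1 (R 4.3.3). Tests used log2(intensity + 16), where the added 16 understates changes of dim genes. Every probe set tested entered 1 limma fit (lmFit, eBayes) of 4 injected against 4 control arrays, with Benjamini-Hochberg adjustment over 27022. Lists were described by counts and medians, each gene being read where its mean signal was highest. The members, lists and alternatives were chosen with earlier results of these data known. Genes were named by a rule: all members, the 3 smallest p of each pathway list, and the 2 nearest profiles of a member. Some targets were named in addition. Same-numbered replicates did not deviate together (0 of 4 pairs had a correlation over 0.1), so numbers were not taken as pairs. The fit was tested on simulated data. Promoter sequences are RefSeq's. Figures used matplotlib 3.10.9 (Python 3.11.15).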

Additional observations from a re-analysis of the deposited data

Results flagged for a closer look

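In 66 groups of 4 arrays (the member and named pathway probe sets, control and injected apart), 6 held an array whose gap to its nearest neighbour was above Dixon's 95% critical share of the group's range. Chance flags about 1 in 20 such groups, or 3.3 of 66. Among the members, the gap share was 0.855 for Nfkbia (1420088_at) on injected replicate 3, at 17.21 against 16.12 for the next array. It was 0.890 for Nfkbiz (1448728_a_at) on control replicate 3, at 9.69 against 9.32, and 0.906 for Bcl3 on control replicate 3, at 8.60 against 9.25. Among the other pathway genes, it was 0.858 for Nkiras1 on injected replicate 3 (12.84 against 13.67), 0.841 for Map3k7 on control replicate 4 (11.67 against 11.84) and 0.869 for Irf1 on control replicate 4 (11.06 against 10.71).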

How the results depend on the processing

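Under the 18 alternatives, no member probe set passed the adjusted threshold (0 under each), and 296 of 318 member values kept their sign. Dropping the filter, the trend and robust prior, the replicate block and 1 probe set per gene leave a member difference unchanged. Values under those settings could not change sign and say nothing of its stability. Sign changes fell on 5 probe sets with differences near 0. With the deposited scaling, Nfkb2 (1429128_x_at) was at 0.18, Nfkbia at -0.030 (1438157_s_at) and 0.013 (1448306_at). With median centring, Nfkbia was at -0.010 (1420089_at) and -0.22 (1438157_s_at) and Nfkbiz (1417483_at) at -0.16. With array weights Nfkbia (1448306_at) was at 0.0068, and without control replicate 2 and injected replicate 3 together Nfkbia was at -0.062 (1438157_s_at) and 0.16 (1448306_at). Leaving out 1 array at a time gave -0.22 to 0.14 for Nfkb2 (1429128_x_at), -0.12 to 0.18, -0.079 to 0.14 and -0.19 to 0.055 for Nfkbia (1420089_at, 1438157_s_at, 1448306_at) and -0.065 to 0.16 for Nfkbiz (1417483_at).

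Over all probe sets, calls numbered 8 with array weights and 0 to 34 when 1 array was left out, the 34 (29 higher, 5 lower) without injected replicate 4. In the pathway lists they numbered 0 to 1, the 1 being Cxcl13 without that array (adjusted p = 0.0333). The list median of other inhibitors was -0.27 with median centring, 0.013 with array weights and 0.042 without control replicate 2 and injected replicate 3, and that of kinases and adaptors -0.12 with median centring. The median of receptors was -0.29 without those 2 arrays, and -0.31 to 0.048 with 1 array left out. That of ligands ran from 0.062 to 0.50 with 1 array left out; the lowest of both lists came without injected replicate 3. Causes were not tested. With the replicate block 0 probe sets passed (smallest adjusted p = 0.163), 0 of them members (0.728), and it changed no call. The number of arrays limits precision.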

Other observations

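Genes were also split by whether a promoter window held the consensus kappa-B motif. Of the tested genes with a RefSeq window, 1258 held the motif, with a median difference of 0.0018 log2 units (quartiles -0.21 and 0.21) and 7.07% at an unadjusted p under 0.05. The 9114 without it had a median of -0.01 (quartiles -0.23 and 0.20) and 6.24%. These are descriptions across genes, which are not independent replicates, and the difference was not tested.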
